A study of Mus musculus with 9 samples.

Results

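The genes described here are 40 that serve protein folding, translocation and degradation in the endoplasmic reticulum (ER), the compartment where secreted and membrane proteins are made. They were taken from a list of 40 gene symbols, matched by symbol to a table of 23420 genes, and all 40 were found. By role the list holds 12 chaperones and their helpers, 11 enzymes of disulfide bonds and proline isomers, 5 subunits of the translocon, 8 genes of ER-associated degradation, and 4 genes of stress sensing including the transcription factor Xbp1. RNA was sequenced from cortex of the kidney in male mice of strain C57/BL6, 4 of which had gone without food for 16 h before they were killed (Fasted), while the other 5 ate freely (Fed). All 9 ate chow and lived under a daily cycle of light and dark, and the labels give no mutation, transgene or drug in either group, nor the age, litter, batch or hour of collection. Each library came from 1 mouse and from a cortex piece of about 50 mg, so it mixes all cell types of that piece. The comparison asks which transcripts of the kidney differ after a fast of this length.

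A protein that enters the ER passes through the Sec61 channel, is held by chaperones such as the protein of Hspa5 (BiP), and is given its disulfide bonds by enzymes of the protein disulfide isomerase family. Glycoproteins are checked by the lectin chaperones calnexin and calreticulin, and chains that do not fold are drawn back to the cytosol and destroyed. When unfolded chains build up, sensors in the ER membrane (the products of Ern1, Eif2ak3 and Atf6) start the unfolded protein response, which raises many of these genes. Tubule cells of the kidney make large amounts of membrane transporters, endocytic receptors and secreted proteins by this route.

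Per library, 18902645 to 27186745 reads were counted in Fasted and 19638174 to 32469467 in Fed. Levels are normalized counts, which are read counts divided by a size factor for each library, and 1 read is worth between 0.744 and 1.32 of them. Changes are differences of log2(normalized count + 1), Fasted over Fed, given with their standard error (SE). They come from limma, fitted over the 15098 genes whose normalized counts averaged 10 or more. A gene was called changed at a Benjamini-Hochberg adjusted p under 0.05, two-sided. All 40 members were tested. The markers of kidney cortex were present at high levels: the 5 proximal tubule markers summed to between 344800 and 403400 in Fasted and between 398400 and 559900 in Fed. The ribosomal RNA entry Rn45s held 0.622% to 2.36% of the counts in Fasted and 0.513% to 5.53% in Fed, highest in Fed 3 and, within Fasted, in Fasted 1.

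In the fasted kidneys 13 of the 40 ER genes fell and none rose. Over all 15098 genes tested, 5.25% were called lower and 5.72% higher in Fasted. The list was drawn up with earlier results of these data known, so the shares over all genes are no independent test. The genes that fell were chaperones in 6 of 12 cases, disulfide and proline enzymes in 4 of 11, translocon subunits in 2 of 5, degradation genes in 1 of 8, and sensors or Xbp1 in 0 of 4. The median log2 change was -0.52 over the chaperones, -0.17 over the disulfide and proline enzymes, -0.09 over the translocon, -0.09 over the degradation genes and 0.07 over the sensors and Xbp1, against 0.000886 over all genes tested. Of the 40 members 29 had a negative log2 change, against 49.8% of all genes tested. No member was called higher by limma, by edgeR (5.72% of all genes) or by DESeq2 (7.95%), and at an unadjusted p under 0.05 limma gave 1 member higher (Herpud1), against 13.5% of all genes, and 18 lower, against 13.3%. For 9 of the 13 genes that fell every fasted library was below every fed one, as was the case for 11 of the 40 members in all and for 6.64% of all genes tested. The count of members called lower was 7 without Fasted 1 (3.36% of all genes called lower in the same fit), 6 without Fasted 2 (4.01%), 7 without Fasted 3 (3.31%), 4 without Fasted 4 (2.67%), 6 without Fed 1 (3.28%) and 7 without Fed 2 (3.48%). It was 8 without Fed 3 and Fasted 1 together (3.22%), and 0 with Fed 4 and 5 as the fed group (0.728%). In pieces of whole cortex, fewer cells of a type and less RNA per cell cannot be told apart.

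**Figure D1:**
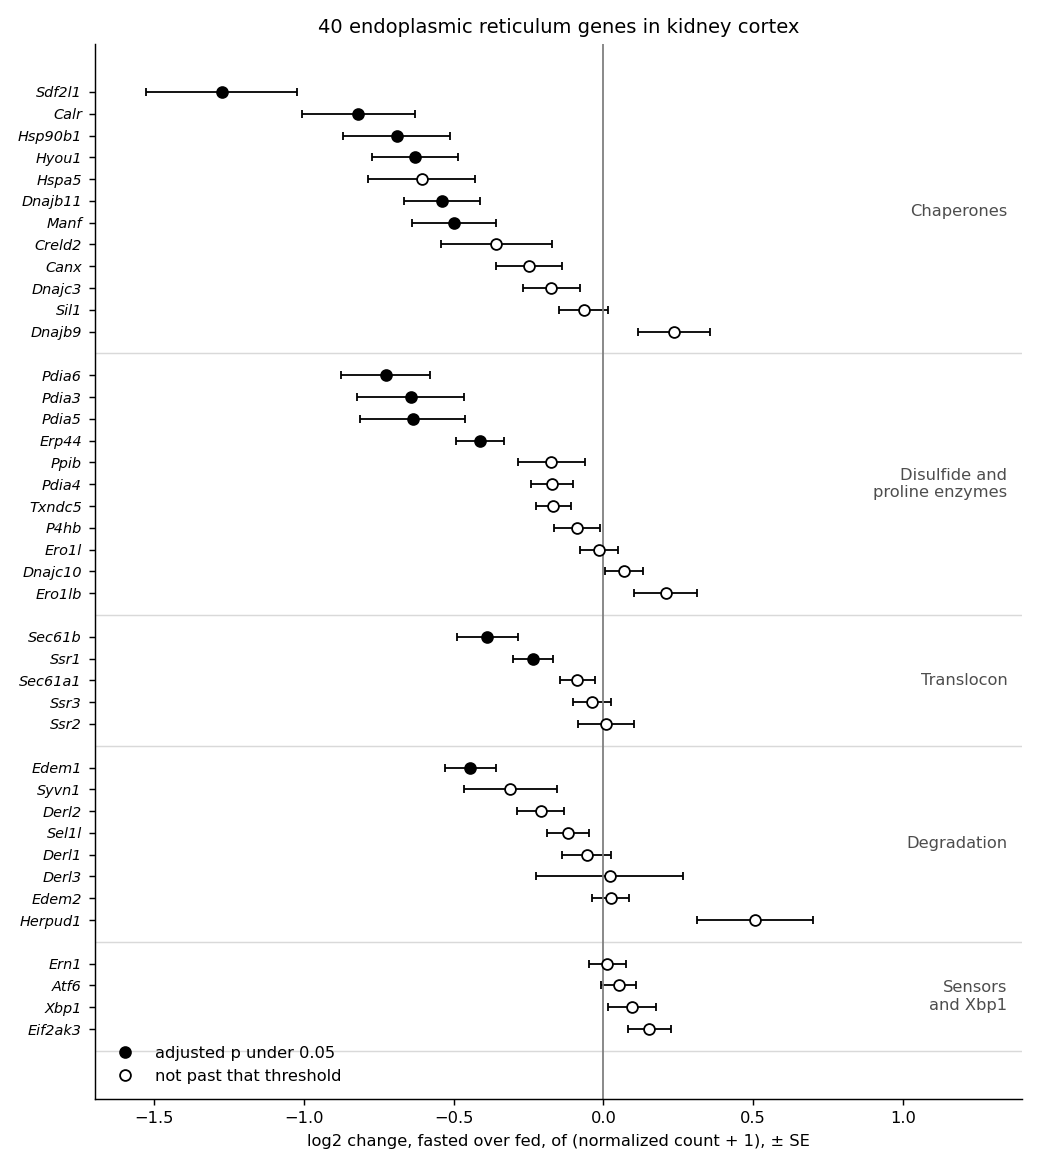
Log2 change of normalized count + 1, Fasted over Fed, with its SE, for each of the 40 genes, grouped by role. Filled points have an adjusted p under 0.05 (limma): they lie between -1.27 (Sdf2l1) and -0.23 (Ssr1), while all 4 points of the sensors and Xbp1 lie at or just above 0.

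Many of these genes share a short promoter element, so the promoters were read from RefSeq (mouse assembly GRCm38.p6) as windows from 250 bases before to 50 bases after the start of transcription. The ER stress element (ERSE) is CCAAT, then 9 bases of any kind, then CCACG, and is known to bind the factor NF-Y together with Atf6. Its variant ERSE-II is ATTGG, then 1 base of any kind, then CCACG, and both were searched on either strand. Of the 40 members 33 matched a promoter entry, 2 of them through a newer symbol; the others are Hyou1, Sil1, Manf, Sec61a1, Ssr2, Derl1 and Atf6. ERSE stood in 10 of the 33, against 0.137% of 27025 genes, and ERSE-II in 2 of the 33, against 0.0444%. Since many of these genes were known to share the element, these shares are no independent test. The windows of 5 members are shown, chosen as the gene that defines the response (Hspa5), 3 genes that fell and hold ERSE (Hsp90b1, Calr, Pdia6), and the member with the highest log2 change (Herpud1, with ERSE-II). Each is written 5′ to 3′ on the strand of its gene and ends just before the RefSeq start of transcription. Capitals mark the ERSE or ERSE-II match, and the span given is that of the bases shown.
Hspa5, chr2:34771840-34772089, plus strand: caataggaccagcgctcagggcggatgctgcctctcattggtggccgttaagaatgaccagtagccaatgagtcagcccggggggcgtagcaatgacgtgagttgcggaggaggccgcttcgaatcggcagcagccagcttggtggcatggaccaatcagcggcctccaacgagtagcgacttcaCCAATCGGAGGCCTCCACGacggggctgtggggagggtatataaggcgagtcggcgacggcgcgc
Hsp90b1, chr10:86705445-86705694, minus strand: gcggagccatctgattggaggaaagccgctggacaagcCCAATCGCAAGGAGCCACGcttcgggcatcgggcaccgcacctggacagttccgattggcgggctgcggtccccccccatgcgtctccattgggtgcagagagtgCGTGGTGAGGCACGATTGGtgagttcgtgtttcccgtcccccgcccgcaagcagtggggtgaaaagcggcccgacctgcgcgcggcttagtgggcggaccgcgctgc
Calr, chr8:84846932-84847181, minus strand: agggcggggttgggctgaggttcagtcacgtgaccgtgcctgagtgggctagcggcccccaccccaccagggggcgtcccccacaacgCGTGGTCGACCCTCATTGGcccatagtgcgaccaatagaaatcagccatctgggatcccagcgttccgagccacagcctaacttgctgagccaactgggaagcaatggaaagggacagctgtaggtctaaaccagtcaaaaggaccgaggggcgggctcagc
Pdia6, chr12:17266339-17266588, plus strand: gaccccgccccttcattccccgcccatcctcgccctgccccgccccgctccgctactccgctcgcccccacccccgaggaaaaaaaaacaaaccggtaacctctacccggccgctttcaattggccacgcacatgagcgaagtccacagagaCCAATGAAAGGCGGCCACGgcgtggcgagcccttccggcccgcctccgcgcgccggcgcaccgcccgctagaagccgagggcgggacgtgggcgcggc
Herpud1, chr8:94386179-94386428, plus strand: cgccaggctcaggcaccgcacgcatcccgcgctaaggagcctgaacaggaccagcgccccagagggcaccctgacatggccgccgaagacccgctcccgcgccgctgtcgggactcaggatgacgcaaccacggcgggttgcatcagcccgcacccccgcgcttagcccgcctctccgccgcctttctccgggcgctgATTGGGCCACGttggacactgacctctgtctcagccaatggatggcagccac

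In these windows positions count from 1 at the start of transcription, with -1 the base before it. The match of Hspa5 lies at -65 to -47, on the strand of the gene. Hsp90b1 has a match on each strand, at -212 to -194 and at -107 to -89. Calr has its match on the opposite strand, at -162 to -144, and Pdia6 on its own strand, at -98 to -80. Herpud1 has ERSE-II at -52 to -42. The other members with ERSE were Dnajc3, Creld2, Canx, Ero1lb, Syvn1 and Derl3, and Dnajb11 had ERSE-II at 8 to 18. Either element stood in 4 of the 11 members called lower that have a window and in 8 of the 22 not called. The genes that hold one thus ran from Calr, with a log2 change of -0.82, to Herpud1, with 0.51. The element TGACGTGG of the unfolded protein response, on either strand, stood only in a window of Txndc5 among the members, against 0.714% of all genes. The core CCACG, which is part of both ERSE forms, stood in 28 of 33 members, against 35.5% of all genes. These are matches of letters in a window, and binding was not measured.

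**Figure D2:**
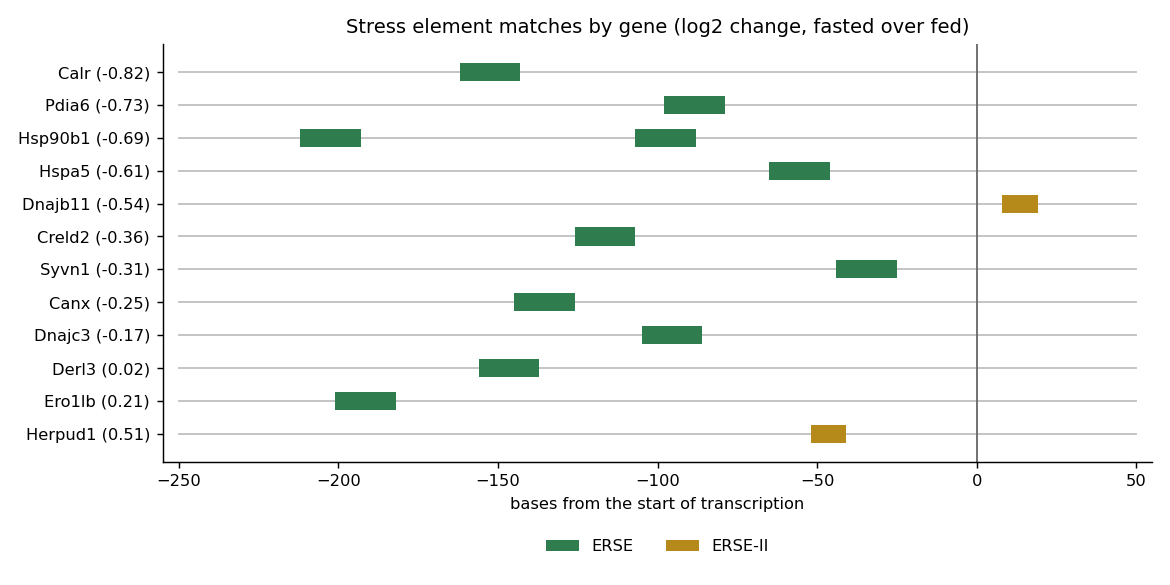
Position of each ERSE (green) and ERSE-II (gold) match in bases from the start of transcription, for the 12 members that hold one, ordered by log2 change, Fasted over Fed (in parentheses). Of the 13 matches 12 lie before the start, and the log2 changes of these members run from -0.82 to 0.51.

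Among the 12 chaperone genes 6 fell and none rose, against 5.25% of all genes called lower and 5.72% higher. For 3 of the 12, all among those 6, every fasted library was below every fed one, against 6.64% of all genes. The 6 had been called with these same libraries. Hspa5 (chr2:34771970-34777547, plus strand) encodes BiP, which binds unfolded chains in the ER lumen and holds the stress sensors inactive. It had 9041, 6625, 9513 and 7380.2 normalized counts in Fasted 1 to 4, against 14596, 13316, 16322.5, 9319 and 9384 in Fed 1 to 5. Fasted 3 was above Fed 4 and Fed 5, so the groups overlapped, and Fed 1 to 3 were well above all other libraries. With a log2 change of -0.61 (SE 0.18), Hspa5 missed the threshold (limma, adjusted p = 0.0524). It passed with edgeR (adjusted p = 0.0472) and with DESeq2 (adjusted p = 0.00543), and in limma without Fed 4 (0.0299) or without Fed 5 (0.0249). Without any one of the other libraries it missed the threshold in limma, at adjusted p from 0.0619 (without Fasted 3) to 0.143 (without Fasted 4).

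Sdf2l1 (chr16:17130138-17132383, minus strand), whose product works with the J protein of Dnajb11 to keep clients of BiP in solution, had the lowest log2 change of the 40. Its libraries had 88.4, 45.0, 74.8 and 69.4 normalized counts in Fasted 1 to 4, against 243, 179.5, 181.5, 151 and 100.5 in Fed 1 to 5. Every fasted library was below every fed library, with Fed 5 the closest. Sdf2l1 fell by 1.27 on the log2 scale (SE 0.25, limma, adjusted p = 0.00969), and its fasted mean was 40.5% of its fed mean. Dnajb11 (chr16:22857845-22879634, plus strand), the J protein that brings unfolded chains to BiP, had 1533, 1764, 1534 and 1440.5 in Fasted 1 to 4, against 2739.7, 2334, 2702, 1961 and 1783 in Fed 1 to 5. Here too the groups did not overlap, with Fasted 2 and Fed 5 next to each other. Dnajb11 fell by 0.54 (SE 0.13, adjusted p = 0.0221).

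Hyou1 (chr9:44379490-44392369, plus strand), a large Hsp70 relative that exchanges the nucleotide of BiP, had 2905, 2123.5, 3095 and 2550.2 normalized counts in Fasted 1 to 4, against 4389, 4265, 5224, 3202 and 3651 in Fed 1 to 5. All fasted values were below all fed values, with Fasted 3 close to Fed 4. Hyou1 fell by 0.63 on the log2 scale (SE 0.14, limma, adjusted p = 0.0191). Manf (chr9:106838312-106891979, minus strand) encodes a small factor that binds BiP in the ER and can be secreted. It had 711.5, 526, 747 and 592 in Fasted 1 to 4, against 1077, 943, 1044.5, 732 and 769 in Fed 1 to 5. Fasted 3 lay above Fed 4, so the groups overlapped, and Fed 1 to 3 were the highest libraries. Manf fell by 0.50 (SE 0.14, adjusted p = 0.044).

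Hsp90b1 (chr10:86690209-86705509, minus strand) encodes the Hsp90 chaperone of the ER, which folds a restricted set of clients such as integrins and Toll-like receptors. Its values were 9539, 6003, 8459 and 7631 normalized counts in Fasted 1 to 4, against 15268, 12118, 16919.7, 10727 and 9416 in Fed 1 to 5. Fasted 1 was slightly above Fed 5, the one place where the groups overlapped. Hsp90b1 fell by 0.69 on the log2 scale (SE 0.18, limma, adjusted p = 0.0318). Of the lectin chaperones, Calr (chr8:84841850-84846934, minus strand), calreticulin, had 8882, 5912, 7816 and 7615 in Fasted 1 to 4, against 17994, 13262, 15098, 13032 and 8499 in Fed 1 to 5. Only Fed 5 lay within the fasted range, and the other fed libraries were all above it. Calr fell by 0.82 (SE 0.19, adjusted p = 0.0197), to 55.6% of the fed mean. Its membrane-bound partner Canx, calnexin, averaged 18029.7 ± 1086 in Fasted and 21598.5 ± 3051 in Fed (SD, n = 4 and 5), with a log2 change of -0.25 (adjusted p = 0.175), and passed only where Fed 5 was left out (0.0132) or Fed 1 to 3 were the fed group (0.0259).

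The other 4 chaperone genes were not called. Creld2, a stress-induced resident of the ER, averaged 482 ± 113 normalized counts in Fasted and 620.5 ± 143.5 in Fed (log2 change -0.36, limma, adjusted p = 0.245). Dnajc3, a J protein of BiP, averaged 6175.5 ± 376 in Fasted and 7003 ± 871 in Fed (-0.17, adjusted p = 0.275), and passed without Fed 5 (0.0376). Sil1, the other nucleotide exchanger of BiP, averaged 1264 ± 40.6 in Fasted and 1329 ± 139 in Fed (-0.07, adjusted p = 0.647). Dnajb9, a J protein that holds BiP on the sensor Ern1 and serves degradation, was the one chaperone gene with a positive log2 change, 0.24 (adjusted p = 0.235), at 865 ± 38.5 in Fasted and 743 ± 139.8 in Fed.

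Sdf2l1 was called lower without any single library (limma, adjusted p at most 0.0302). Calr lost its call without Fasted 2 (0.0589) or Fasted 4 (0.0523), and Hyou1 without Fasted 2 (0.0534) or Fasted 4 (0.058). Dnajb11 lost it without Fasted 1 (0.0585), Fasted 3 (0.0578), Fasted 4 (0.0731) or Fed 1 (0.0509). Hsp90b1 lost it without Fasted 2 (0.0887), Fasted 3 (0.0584), Fasted 4 (0.086), Fed 1 (0.0763), Fed 2 (0.0554) or Fed 3 (0.0504). Manf lost it without Fasted 1 (0.0622), Fasted 2 (0.117), Fasted 4 (0.126), Fed 1 (0.101), Fed 2 (0.0859) or Fed 3 (0.0787).

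**Figure D3:**
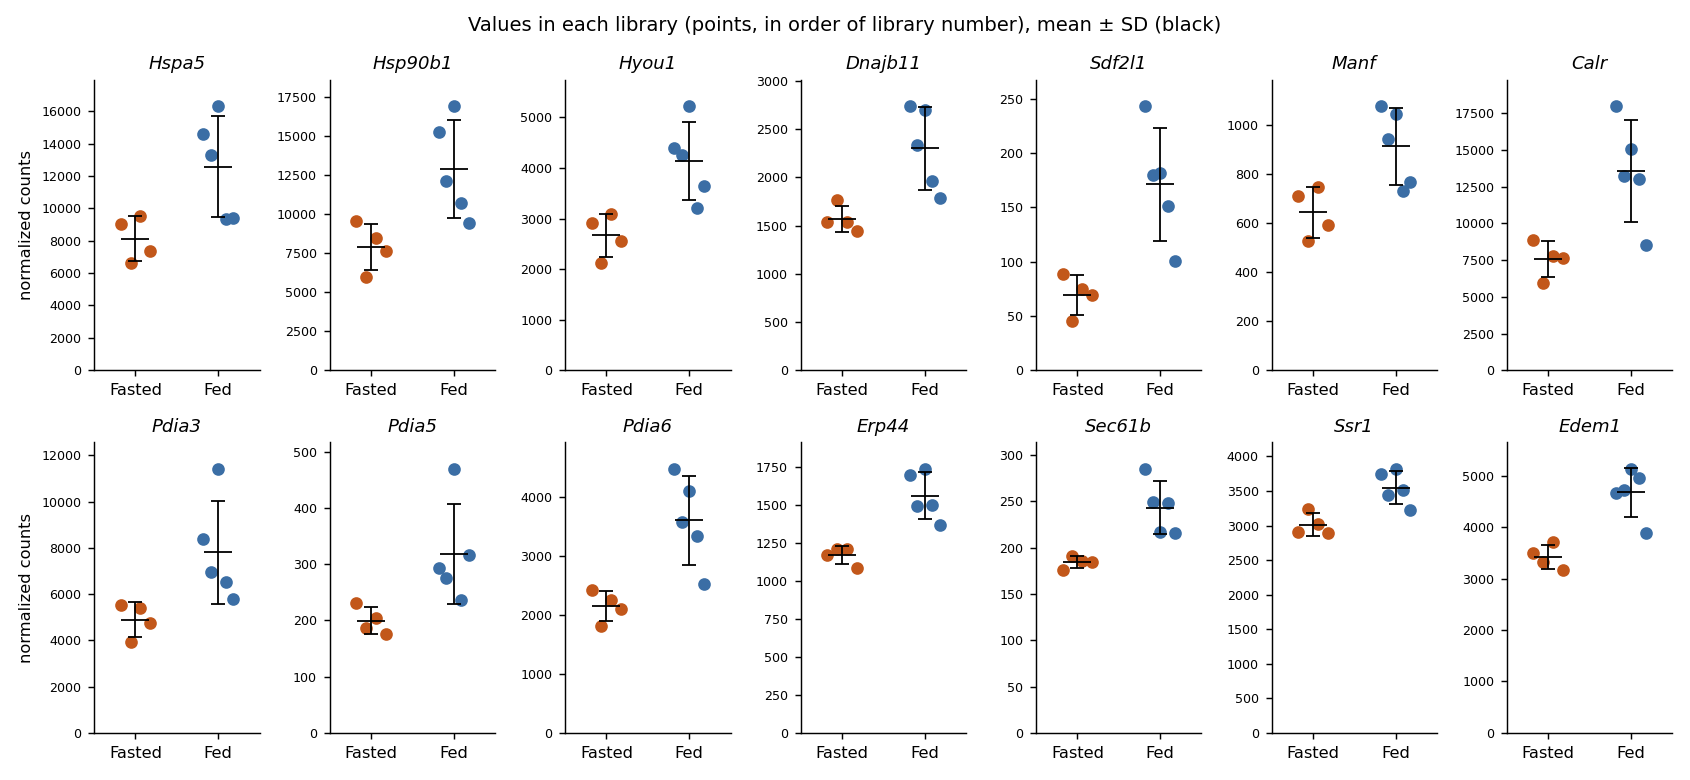
Normalized counts in each library for Hspa5 and the 13 genes called lower in Fasted, with the mean and SD in black; every axis starts at 0. The groups do not overlap for Sdf2l1, with fasted libraries at 45.0 to 88.4 and fed libraries at 100.5 to 243, while for Ssr1 Fasted 2 lies just above Fed 5.

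Of the 11 disulfide and proline enzymes 4 were lower in Fasted, against 5.25% of all genes called lower, and the others did not pass. Pdia6 (chr12:17266545-17284770, plus strand), an isomerase that works beside BiP, had 2425, 1818, 2248 and 2105 normalized counts in Fasted 1 to 4, against 4479, 3583, 4103, 3333 and 2526 in Fed 1 to 5. The groups did not overlap, with Fasted 1 and Fed 5 next to each other. Pdia6 fell by 0.73 on the log2 scale (SE 0.15, limma, adjusted p = 0.0115). Pdia3 (chr2:121413775-121438687, plus strand), which forms disulfides in the glycoproteins that calnexin and calreticulin hold, had 5530.2, 3914, 5401 and 4764 in Fasted 1 to 4, against 8408, 6950.3, 11422, 6549 and 5774 in Fed 1 to 5. Fed 3 was far above the rest, and Fed 5 lay just above the highest fasted value. Pdia3 fell by 0.64 (SE 0.18, adjusted p = 0.0419).

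Pdia5 (chr16:35397312-35490873, minus strand), an isomerase of the same family, had 231, 186, 205 and 176 normalized counts in Fasted 1 to 4, against 293, 275, 469.6, 236 and 316 in Fed 1 to 5. The groups met but did not overlap, at Fasted 1 and Fed 4, and Fed 3 was the highest library. Pdia5 fell by 0.64 on the log2 scale (SE 0.17, limma, adjusted p = 0.0393). Erp44 (chr4:48193323-48279558, minus strand) encodes the protein that brings incompletely bonded chains and the Ero1 oxidases back from the Golgi. Its values were 1170.0, 1213, 1210.4 and 1083 in Fasted 1 to 4, against 1699.9, 1496, 1738, 1501 and 1369 in Fed 1 to 5. These groups stood clearly apart and varied little within. Erp44 fell by 0.41 (SE 0.08, adjusted p = 0.00896).

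The other 7 enzymes were not called by limma. P4hb, protein disulfide isomerase itself, averaged 16762 ± 556 normalized counts in Fasted and 17865 ± 1473 in Fed (log2 change -0.09, adjusted p = 0.504). Txndc5, a relative of P4hb, averaged 2239 ± 114 in Fasted and 2512 ± 79.9 in Fed (-0.17, adjusted p = 0.0861). Its groups did not overlap, and it passed with DESeq2 (adjusted p = 0.0404). Pdia4, another isomerase, had a log2 change of -0.17 (adjusted p = 0.148). Ppib, the proline isomerase cyclophilin B, had -0.17 (adjusted p = 0.35), and -0.28 without Fed 5 (adjusted p = 0.0198). The oxidases that recharge the isomerases had -0.01 (Ero1l, adjusted p = 0.911) and 0.21 (Ero1lb, adjusted p = 0.231). Dnajc10, a reductase that opens disulfides before degradation, had 0.07 (adjusted p = 0.535).

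Pdia6 and Erp44 were called lower without any single library (limma, adjusted p at most 0.0389 and 0.037). Pdia3 lost its call without Fasted 1 (0.0622), Fasted 2 (0.115), Fasted 3 (0.0657), Fasted 4 (0.108), Fed 1 (0.0949) or Fed 2 (0.0615). Pdia5 lost it without Fasted 1 (0.0539), Fasted 2 (0.0949), Fasted 3 (0.0765), Fasted 4 (0.119), Fed 1 (0.0714), Fed 2 (0.0547) or Fed 5 (0.0577).

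At the translocon, 2 small changes passed among 5 genes, against 5.25% of all genes called lower. Sec61b (chr4:47474658-47483242, plus strand), a small subunit of the Sec61 channel, had 176, 191.5, 186 and 185 normalized counts in Fasted 1 to 4, against 285, 249.5, 217, 248 and 216 in Fed 1 to 5. The fasted libraries lay close together and below all fed libraries. Sec61b fell by 0.39 on the log2 scale (SE 0.10, limma, adjusted p = 0.0333). A predicted gene, Gm10320, matches its transcript at 98.3% over 474 bases, or 37.3% of the exon length, so reads could be shared between them. Ssr1 (chr13:37966605-37994217, minus strand), a subunit of the translocon-associated protein complex, had 2908, 3242, 3015 and 2889.8 in Fasted 1 to 4, against 3744.5, 3444, 3820.2, 3510.1 and 3219 in Fed 1 to 5. Fasted 2 lay just above Fed 5, so the groups overlapped. Ssr1 fell by 0.23 (SE 0.07, adjusted p = 0.047).

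The channel gene itself, Sec61a1, averaged 3648 ± 136 normalized counts in Fasted and 3877 ± 197 in Fed (log2 change -0.09, limma, adjusted p = 0.376). The other subunits of the associated complex, Ssr2 and Ssr3, had log2 changes of 0.01 and -0.04 (adjusted p = 0.962 and 0.751). Sec61b lost its call without Fasted 1 (0.0865), Fasted 2 (0.0568), Fasted 3 (0.0712), Fasted 4 (0.0863), Fed 1 (0.0745), Fed 2 (0.0719) or Fed 4 (0.0595). Ssr1 lost it without Fasted 1 (0.119), Fasted 3 (0.103), Fasted 4 (0.142), Fed 1 (0.11), Fed 2 (0.0772), Fed 3 (0.0703) or Fed 4 (0.0697).

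Of the 8 degradation genes only Edem1 passed, against 5.25% of all genes called lower. Edem1 (chr6:108828641-108859356, plus strand) encodes a lectin-like protein that takes misfolded glycoproteins out of the folding cycle. It had 3504.5, 3320.3, 3705 and 3176 normalized counts in Fasted 1 to 4, against 4673, 4727, 5136, 4958 and 3888 in Fed 1 to 5. No fasted library reached the lowest fed library, Fed 5. Edem1 fell by 0.44 on the log2 scale (SE 0.09, limma, adjusted p = 0.00845), and it was called without any single library (adjusted p at most 0.0343). Its relative Edem2 averaged 887 ± 53.2 in Fasted and 871 ± 20.2 in Fed (log2 change 0.02, adjusted p = 0.835).

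The member with the highest log2 change was Herpud1 (chr8:94386438-94395377, plus strand), a membrane scaffold of the degradation complex. It averaged 12297 ± 2189 normalized counts in Fasted and 8824 ± 2386 in Fed, with a log2 change of 0.51 (SE 0.19, limma, adjusted p = 0.119). The groups overlapped: Fasted ranged from 10335 to 14776, and Fed from 6254 to 11384. Syvn1, the ubiquitin ligase of the complex, had -0.31 (adjusted p = 0.228), and its partner Sel1l had -0.12 (adjusted p = 0.32). Of the derlins, channel proteins through which chains leave the ER, Derl1 had -0.06 (adjusted p = 0.711) and Derl2 had -0.21 (adjusted p = 0.113). The groups of Derl2 did not overlap. Derl3 was scarce, with 30.6 ± 5.92 in Fasted and 30.9 ± 9.16 in Fed (log2 change 0.02, 95% interval -0.52 to 0.56).

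The stress sensors and Xbp1 were not called. Xbp1 (chr11:5520659-5525893, plus strand), whose messenger RNA is spliced by the sensor Ern1 into the form that makes an active transcription factor, had 3176, 2778, 3012 and 3186 normalized counts in Fasted 1 to 4, against 3031, 2812, 2739, 2484 and 3189.8 in Fed 1 to 5. The fasted range lay inside the fed range. Xbp1 had a log2 change of 0.09 (95% interval -0.08 to 0.27, limma, adjusted p = 0.485). Atf6 (chr1:170704674-170867771, minus strand), the sensor that is cut in the Golgi to release a transcription factor, had 2637, 2838, 2796 and 2578 in Fasted 1 to 4, against 2644, 2676, 2461, 2783 and 2529 in Fed 1 to 5. Values of both groups were mixed in order. Its log2 change was 0.05 (95% interval -0.08 to 0.18, adjusted p = 0.627).

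Ern1 (chr11:106394650-106487852, minus strand), the kinase and nuclease that splices Xbp1, had 919.8, 956, 885 and 915 normalized counts in Fasted 1 to 4, against 873, 964, 935, 859 and 925 in Fed 1 to 5. Here again the fasted range lay inside the fed range. The log2 change of Ern1 was 0.01 (95% interval -0.12 to 0.15, limma, adjusted p = 0.918). Eif2ak3 (chr6:70844515-70905245, plus strand), the kinase that slows translation during ER stress, had 1876, 1983, 1693 and 1621 in Fasted 1 to 4, against 1574, 1686, 1648, 1502 and 1629 in Fed 1 to 5. Fasted 1 to 3 were the highest of the 9, and Fasted 4 lay among the fed libraries. Eif2ak3 had a log2 change of 0.15 (95% interval -0.00 to 0.31, adjusted p = 0.196). Counts per gene do not separate the spliced form of Xbp1 from the unspliced one, and neither cleavage of Atf6 nor phosphorylation was measured.

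Per kilobase of annotated exon, the members spanned a wide range of levels. P4hb stood at 5859 normalized counts per kilobase in Fasted and 6244 in Fed, Herpud1 at 5271 in Fasted and 3782 in Fed, Canx at 3842 in Fasted and 4602 in Fed, and Calr at 2624 in Fasted and 4714 in Fed. Calr was thus above Herpud1 in Fed and below it in Fasted. Hsp90b1 stood at 1961 in Fasted and 3197 in Fed, and Hspa5 at 1925 in Fasted and 2976.5 in Fed. The lowest in Fasted were Derl3, at 15.3 in Fasted and 15.5 in Fed, Ero1lb, at 60.9 in Fasted and 52.7 in Fed, and Sdf2l1, at 62.6 in Fasted and 155 in Fed. The member with the lowest log2 change was thus one of the least abundant, and both abundant and scarce genes were among those that fell. These levels rest on the union of GENCODE M21 exons (GRCm38), which need not be the gene models the reads were counted with.

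The genes that fell had their lowest and their highest values in the same few libraries. They had been called lower in Fasted with these same libraries, so lows in Fasted and highs in Fed follow from that choice. Averaged over the 13 genes that fell, and set against the mean of the 9 libraries, the log2 level was -0.21, -0.51, -0.25 and -0.40 in Fasted 1 to 4, against 0.49, 0.27, 0.52, 0.13 and -0.04 in Fed 1 to 5. Fed 5 was thus the fed library nearest to the fasted ones, though above all of them, and Fed 1 and Fed 3 were farthest from them. Fed 5 (-0.04) lay about as far from Fasted 1 (-0.21) as from Fed 4 (0.13). Fasted 2 had the lowest value of the 9 for 7 of the 13 genes, Fasted 4 for 5 and Fasted 1 for 1, while the highest value was in Fed 3 for 7 genes and in Fed 1 for 6. Over all members, called or not, the lows were not confined to Fasted. The lowest value was in Fasted 2 for 11 members, in Fed 5 for 10, in Fasted 4 for 8 and in Fed 4 for 5. The highest was most often in Fed 3 (14 members) and Fed 1 (12), and it was in Fasted 2 for 4. Over the 4 sensor genes, Xbp1 included, the mean log2 level was 0.07, 0.08, 0.02 and 0.01 in Fasted 1 to 4. It was -0.03, 0.01, -0.05, -0.11 and 0.01 in Fed 1 to 5, again set against the mean of the 9 libraries.

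**Figure D4:**
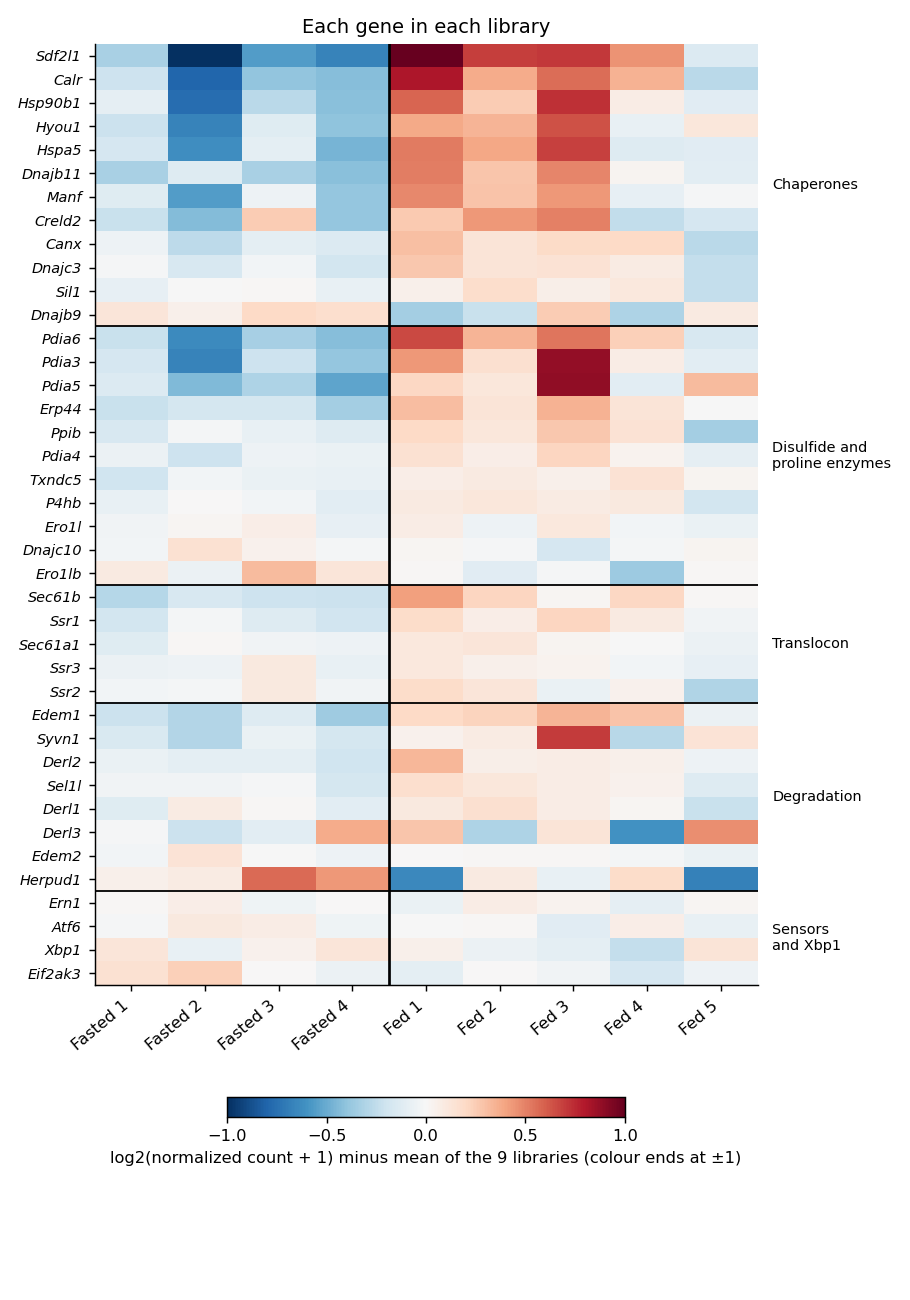
Log2(normalized count + 1) of each of the 40 genes in each of the 9 libraries, minus the mean of that gene over the libraries; blue is lower and red higher. Most chaperone and disulfide rows that fell are deepest blue in Fasted 2, all are deepest red in Fed 1 or Fed 3, and most are pale in Fed 5.

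With the group means taken off, the genes that followed Hspa5 most closely over the 9 libraries were in part members. Pearson's r was 0.97 for Manf, 0.95 for Hyou1, 0.93 for Hsp90b1 and 0.91 for Creld2, so that 4 of 39 members exceeded 0.9, as did 0.246% of the genes outside the list. Outside the members r was highest for Ubfd1 (0.97), Rab6a (0.95), Kdelc1 (0.95), Med19 (0.94) and Kcnmb1 (0.94). None of these 5 was called changed. At the other end r was -0.55 for Dnajc10, -0.38 for Txndc5 and -0.33 for Atf6. All genes share the same 9 libraries and their depths, so these values only describe the libraries.

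The fed libraries also differed among themselves for these genes, and they were split here by title number, not by their values. For the 13 genes that fell, the mean log2 level described above put Fed 4 (0.13) nearer Fed 2 (0.27) than Fed 5 (-0.04). The title numbers of Fed 4 and Fed 5 (32 and 34) come after those of the fasted libraries (23 to 29), and those of Fed 1 to 3 (18 to 22) come before. What the numbers stand for is not given. Fed 4 and 5 were on average lower than Fed 1 to 3 for 37 of the 40 members, among them all 13 that fell, against 51.7% of all genes tested. The median difference, Fed 4 and 5 minus Fed 1 to 3, was -0.16 on the log2 scale over the 40 members and -0.45 over the chaperones, against -0.01 over all genes. For 18 of the 40 members, 8 of them among the 13 that fell, both Fed 4 and Fed 5 lay below all of Fed 1 to 3, against 9.29% of all genes.

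Against Fed 4 and 5 alone, none of the 40 members was called by limma in either direction, with 0.728% of all genes called lower and 1.63% higher. All 13 fasted means still lay below the mean of Fed 4 and 5, by log2 differences of -0.86 (Sdf2l1) to -0.16 (Ssr1). Every fasted library was below both Fed 4 and Fed 5 for 11 of the 40 members, 9 of them among the 13, against 12.5% of all genes; the 13 had been chosen as lower in Fasted with these same libraries. Adjusted p of the 13 then ran from 0.127 (Erp44) to 0.47 (Manf), in limma with 2 fed libraries. For Hspa5 the difference from Fed 4 and 5 was -0.22 (adjusted p = 0.518). Against Fed 1 to 3 alone, 18 members were called lower, all 13 among them, with log2 differences of -1.55 (Sdf2l1) to -0.28 (Ssr1), and 6.03% of all genes were called lower. The difference between the sets of fed libraries was not tested for any single gene.

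**Figure D5:**
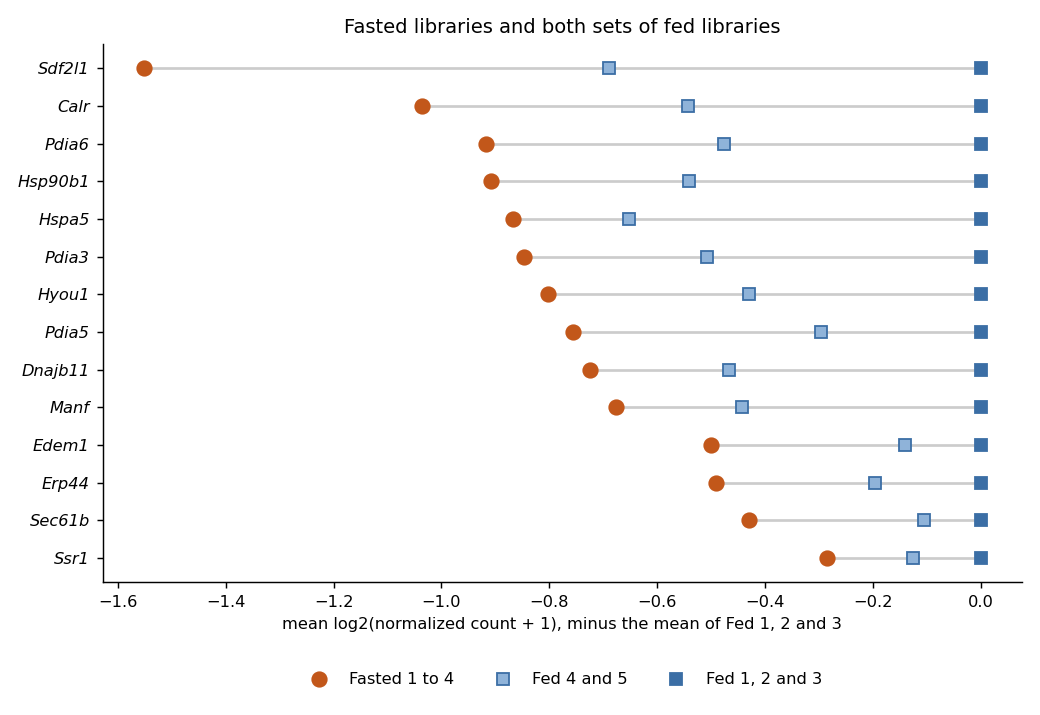
Mean log2(normalized count + 1) of the fasted libraries (orange circles) and of Fed 4 and 5 (light squares), minus the mean of Fed 1, 2 and 3 (dark squares, at 0), for Hspa5 and the 13 genes that fell. In all 14 genes Fed 4 and 5 lie between the fasted libraries and Fed 1 to 3, at -0.65 for Hspa5.

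Beyond the 40 members, 137 other genes of the ER and its traffic were tested in 6 lists, and 11 fell and 2 rose. The share that fell was 8.03%, against 5.25% of all genes, and it was 4.35% (5 of 115) outside the list of N-glycan attachment and trimming. That list had 6 of 22 genes lower and none higher (median log2 change -0.17). Of these, Uggt1, which tags misfolded glycoproteins for calnexin and calreticulin, fell by 0.23 (SE 0.06, limma, adjusted p = 0.0359). Ganab, a subunit of the glucosidase that trims glycans, fell by 0.26 (SE 0.07, adjusted p = 0.0361), and Ddost, a subunit of the oligosaccharyltransferase, by 0.25 (SE 0.07, adjusted p = 0.0368). Among 23 further folding enzymes 2 fell and 1 rose (median 0.01). Fkbp11, a proline isomerase of the ER, averaged 32.8 ± 2.01 normalized counts in Fasted and 61.5 ± 1.5 in Fed, a log2 change of -0.89 (SE 0.13, adjusted p = 0.00185). Txndc11 fell by 0.27 (SE 0.07, adjusted p = 0.0306), and Qsox1, a sulfhydryl oxidase of the secretory route, rose by 0.55 (SE 0.09, adjusted p = 0.00329).

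Among 24 outputs of the stress sensors 1 gene rose and 1 fell (median -0.01). The share that fell was 4.17% in this list, in that of degradation genes and in that of transport vesicles. Over all genes tested 5.25% were called lower and 5.72% higher. Creb3l3, an ER-bound transcription factor known from liver for its rise in fasting, averaged 133 ± 25.2 normalized counts in Fasted and 16.5 ± 16.0 in Fed, a log2 change of 3.39 (SE 0.55, limma, adjusted p = 0.00375). Atf6b, the relative of Atf6, fell by 0.50 (SE 0.11, adjusted p = 0.015), and Creb3l2 had -0.39 (adjusted p = 0.109). In the list of 24 further degradation genes Vimp, which links the derlins to their motor, fell by 0.33 (SE 0.09, adjusted p = 0.0361), while Ufd1l had 0.27 and Sel1l3 had -0.19 (adjusted p = 0.0662 and 0.0746). Among 24 genes of transport vesicles the coat gene Sec23b fell by 0.33 (SE 0.08, adjusted p = 0.0267), while Cnih had -0.21 and Sec31a had -0.20 (adjusted p = 0.0948 and 0.115). None of the 20 genes of signal sequence targeting and cleavage was called (median -0.03), with Spcs3 at -0.14, Spcs2 at -0.18 and Sec62 at -0.13 (adjusted p = 0.172, 0.216 and 0.217).

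Markers of cell types that are rich in ER were set beside these values. Of the 10 plasma and B cell markers listed, 9 were in the table and 3 were tested and none was called, and their sum lay between 70.2 and 124 normalized counts in Fasted and between 79.2 and 96.5 in Fed. Of the 5 markers of pancreas acinar cells, Cela1 had 636 to 720 in Fasted and 781 to 1694 in Fed (lower, limma, adjusted p = 0.00817), while Prss2, Cpa1, Ctrb1 and Pnlip reached at most 1.86 in Fasted and 2.63 in Fed. The 6 hepatocyte markers summed to between 42180 and 50940 in Fasted and between 28560 and 44340 in Fed, with none called. Most of that sum was Apob, at 34740 to 46970 in Fasted and 21730 to 32010 in Fed (limma, adjusted p = 0.054). Alb had 1848 to 7396 in Fasted and 250.8 to 10090 in Fed. Of the 5 proximal tubule markers 1 fell, Slc34a1 (log2 change -0.58, adjusted p = 0.0377), while the log2 changes of the others were -0.47 for Lrp2 (adjusted p = 0.0664), -0.35 for Slc5a2 (0.153), -0.05 for Cubn (0.824) and 0.14 for Slc22a6 (0.499). Of the 4 endothelial markers Pecam1 rose by 0.35 and Kdr fell by 0.26. Of the 5 fibroblast markers Pdgfra and Dcn rose by 0.70 and 0.83, and Col1a1 fell by 0.87. Of the 4 adipocyte markers only Plin1 was tested, and it rose by 3.24 (limma, adjusted p = 0.0266). The adipocyte markers summed to 10.2, 72.0, 3.84 and 32.9 normalized counts in Fasted 1 to 4, against 1.07 to 6.58 in Fed. Whether these shifts take part in the values of the ER genes was not tested.

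In the authors' deposited table, 15 of the 40 members had an adjusted p under 0.05, and all 15 were lower in Fasted, as were 7.89% of the 14772 genes with an adjusted p in that table. They are the 13 genes called here with Hspa5 (log2 change -0.54, adjusted p = 0.00531 in the authors' deposited table) and Txndc5 (-0.16, adjusted p = 0.0426 there). The deposited annotation chart, made by the authors from their own list of changed genes, held the term for the ER with 104 genes, a fold enrichment of 1.77 and a Benjamini p of 1.8e-06, and 12 of the 104 are members. The term for the ER lumen had 15 genes, a fold enrichment of 2.97 and a Benjamini p of 0.00841, and 10 of the 15 are members. The keyword for the unfolded protein response had 5 genes, a fold enrichment of 3.32 and a Benjamini p of 0.345, with Edem1 and Manf among them. The members lie in that list because of the same libraries, so the chart is no separate evidence.

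How reads were counted limits some of these genes, since neither the strand setting nor the gene models are given in the sources used here. Exons of Hsp90b1 overlap 3 other annotated genes, and the largest overlap with 1 of them covers 10.3% of their length. Those of Ssr2 overlap 1 gene over 12.8% and those of Ppib 1 gene over 25.0%. By sequence, 13 of the 40 members have a stretch of at least 150 bases that matches the transcript of another gene at 95% or more, among them Sec61b, Ero1lb, Manf and Hsp90b1. This count includes genes that overlap a member at the same place in the genome. For Manf and Hsp90b1 the only match was such a gene, on the opposite strand.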

How the data were processed

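RNA came from kidney cortex of 4 Fasted and 5 Fed mice, was isolated with TRIzol and went into TruSeq libraries, as the labels' protocols state. The submitters' processing notes name FastQC, TopHat2 2.0.9, HTSeq 0.9.1 and DESeq2 (version given as 3.5), and as builds mm10 and hg19. Gene models and strand setting are not given in the sources used here. The deposited values of the 9 libraries are a signal in normalized counts: the authors scaled each library's reads by its own size factor. Reads could be recovered, since 100% of the 161194 values above 0 came out as whole reads within 0.01. The authors also deposited log2 fold changes with their SE, p-values and adjusted p-values of their own fit. Their annotation chart gives the number of genes per term, the fold enrichment as a ratio of shares, and p-values. Sample columns not used numbered 0.

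Testing used limma 3.58.1 (R 4.3.3) with an intensity trend and no covariates, since the labels give none, on log2 of the value plus 1. Genes that averaged 10 normalized counts or more were kept. Two-sided p-values were adjusted by Benjamini-Hochberg over the 15098 genes tested. In the whole deposited table, before this filter, 4 rows share a gene name with another row. Each library is 1 mouse. Alternatives were edgeR 4.0.16 and DESeq2 1.42.0 on the recovered reads, and other filters, pseudocounts, scalings, thresholds, fed subsets and each library left out. Steps were tested on simulated data. Gene positions and exon lengths come from GENCODE M21 (GRCm38), promoters from RefSeq (GRCm38.p6), and similar transcripts from blastn 2.17.0.

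The members and the other gene lists were chosen with earlier results of these data known. By rule, every library's value is given for each member called and for Hspa5, Xbp1, Atf6, Ern1 and Eif2ak3. The 3 genes with the smallest adjusted p are named from each other list, as are the 5 genes outside the members most like Hspa5.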

Additional observations from a re-analysis of the deposited data

Results flagged for a closer look

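A library far from the others of its group was looked for in each member and each group, by the gap to the nearest library over the range of the group. Of 80 such groups 7 had one, and chance gives about 1 in 20. In Fed 5, P4hb was at 15242 normalized counts while the other fed libraries had 18394 to 18723, and Ppib was at 828.5 while the others had 1139 to 1264. Dnajc10 was at 1851 in Fed 3, and the other fed libraries had 2044.5 to 2115. In Fasted 2, Pdia4 was at 2765 while the other fasted libraries had 3060 to 3089. Fasted 3 was above the other fasted libraries for Ssr2, at 1394.5 with the others at 1269.7 to 1284, and for Ssr3, at 6355 with the others at 5633 to 5737. Sel1l was at 4020.0 in Fasted 4, and the other fasted libraries had 4429.9 to 4508. None of these 6 enzymes and subunits, nor Sel1l, was called changed, and of them Ppib passed without Fed 5 (limma, adjusted p = 0.0198). For none of the genes called lower did a single library stand apart in this way.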

How the results depend on the processing

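The count of members called lower was 13 (5.25% of all genes called lower). It lay between 11 and 16 for both pseudocounts, no filter, a mean of at least 100, and quantile and TMM scaling. The same held for a robust variance prior, quality weights, edgeR, DESeq2 and an adjusted p under 0.10. The share of all genes called lower in these fits ran from 3.56% (no filter, 11 members) to 9.64% (quality weights, 16 members). The count of members was 3 at an adjusted p under 0.01 (1.61% of all genes called lower). It was 8 without Fed 3 and Fasted 1 (3.22%), and 0 with Fed 4 and 5 as the fed group (0.728%). Leaving out 1 library at a time gave 4 to 16 members lower and 0 higher, and 861 to 1959 of all genes called in either direction. The share of all genes called lower ran from 2.67% (without Fasted 4, 4 members) to 6.84% (without Fed 5, 16 members). Quality weights called 1 member higher (Dnajb9), against 8.9% of all genes, and 2798 genes in either direction. The count of all genes was 538 at an adjusted p under 0.01, 2628 under 0.10, 1068 without Fed 3 and Fasted 1, and 357 with Fed 4 and 5. Each library left out cost at least 1 of the 13 calls, 9 of them in the case of Fasted 4; Sdf2l1, Pdia6, Erp44 and Edem1 kept theirs in all 9 of these fits and lost it with Fed 4 and 5. No value changed sign past the threshold in any of the 24 alternatives. No paired analysis was possible because the labels give no numbers shared between the groups. With 4 and 5 mice, changes of a size within the 95% interval of Derl3 (-0.52 to 0.56) were not detectable for that gene.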
